A study of Mus musculus with 6 samples.

Results

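Steroid hormones are built from cholesterol by a short chain of enzymes, and 7 genes of that chain and its partners were followed here in the liver of mouse pups: Cyp17a1, Mgarp (listed under its older symbol 4930583H14Rik), Por, Srd5a1, Hsd17b2, Star and Cyp11a1. They were picked by symbol with earlier results of the same arrays known, so their values are given as a description and carry no test. Of 18138 gene symbols and 25697 probes on the array, these 7 genes held 9 probes, and 7 of the 9 were among the 10734 probes detected on at least 3 of the 6 arrays.

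Total RNA from whole liver of male FVB pups (FVB/N in the study's methods) at postnatal day 6 was hybridised to single-colour Illumina bead arrays, with 3 pups in each of 2 groups. Both groups carried Signalox-hSRY, a transgene inserted as a single copy at the H11 locus of chromosome 11 in 1 mouse line. In hSRY-OFF pups the transgene was unrecombined, so that the ubiquitous CAG promoter drove the red fluorescent protein DsRed2. In hSRY-ON pups, Cre recombinase supplied by the oocyte of a Ddx4-Cre mother had removed DsRed2, and the same promoter drove FLAG-tagged human SRY, the Y-linked switch gene of testis formation, together with EGFP. The hSRY-ON pups chosen for the arrays had not inherited Ddx4-Cre itself. The question of the comparison was how liver transcripts differ when the human SRY transgene has been activated at the single-cell embryo stage. The study describes hSRY-ON pups as suckling poorly and growing slowly, so feeding state and transgene activity cannot be told apart in these groups. It also describes recombination in pups of Ddx4-Cre mothers whether or not they inherit Cre. Mothers and litters of the arrayed pups are not stated, so they, and DsRed2 against EGFP, cannot be told apart from group either. No probe for human SRY or DsRed2 was used here.

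As background, steroid synthesis starts when STAR brings cholesterol to the inner mitochondrial membrane, where CYP11A1 cuts off its side chain to give pregnenolone. CYP17A1, in the endoplasmic reticulum, then hydroxylates pregnenolone and progesterone and splits their side chain to open the route to androgens, using electrons handed over by POR. These steps are best known from adrenal gland, testis and ovary, while the liver is known chiefly for reducing, oxidising and conjugating the finished steroids. MGARP is a mitochondrial protein known from steroid-making tissues and from responses to low oxygen, where it acts on the movement of mitochondria.

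The arrays were alike in brightness, with median deposited intensities from 146.9 to 164.7 and 10318 to 10762 probes detected per array. Across probes, any pair of hSRY-OFF arrays correlated at 0.987 to 0.993, any pair of hSRY-ON arrays at 0.965 to 0.982, and pairs from different groups at 0.912 to 0.939. Hepatocyte markers checked the tissue, as 10 of their 11 probes were detected on every array. All levels below are normalized log2 intensities (a step of 1 is a doubling), and a difference is the hSRY-ON mean minus the hSRY-OFF mean with the standard error (SE) of the fit, n = 3 arrays a group. Whole liver was assayed, so fewer cells of a type and less RNA per cell cannot be told apart. Levels of different probes are not on a shared scale and are not compared.

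Cyp17a1, the branch-point enzyme toward androgens (chromosome 19, 46667165 to 46673000 in GRCm38.p6), was at the edge of detection in control liver and bright in all hSRY-ON livers. Its probe ILMN_2874352 read 5.14, 4.86 and 5.83 on hSRY-OFF 1, 2 and 3, and 12.46, 11.24 and 10.33 on hSRY-ON 1, 2 and 3. The groups lay far apart, with hSRY-OFF 3 the single control array that detected the probe. The deposited intensities behind these levels were 164.5, 155.8 and 168.5 in hSRY-OFF and 5975, 2449 and 1249 in hSRY-ON. Means were 5.28 ± 0.50 (SD) and 11.34 ± 1.07 (SD), a fitted difference of 6.06 ± 0.51. With both undetected controls set to their arrays' detection floors, the difference was 5.56, and it was 4.08 without background correction and 4.03 with trimmed-mean scaling of uncorrected values. Among the hSRY-ON pups the level was uneven, spanning 2.13 from the highest, hSRY-ON 1, to the lowest, hSRY-ON 3. Leaving out hSRY-ON 3 gave a difference of 6.57 and leaving out hSRY-ON 1 gave 5.51.

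Mgarp, which encodes the mitochondrial partner protein (chromosome 3, 51388412 to 51396547), showed the same on-off picture. Probe ILMN_1250001 read 5.06, 4.64 and 4.80 on hSRY-OFF 1, 2 and 3, and 11.87, 11.10 and 11.01 on hSRY-ON 1, 2 and 3. No hSRY-OFF array detected it and every hSRY-ON array did, so the fold is a lower bound: hSRY-ON livers had at least 48.3-fold higher Mgarp, their mean being set against the detection floors of the control arrays. This bound belongs to the background correction used here, and the difference was 4.20 on the log2 scale without it. The deposited intensities were 161.4, 145.1 and 139.2 in hSRY-OFF and 4114, 2259 and 1907 in hSRY-ON. The measured means were 4.83 ± 0.21 and 11.33 ± 0.47 (SD), and the fitted difference was 6.49 ± 0.24. The hSRY-ON levels of Mgarp spanned 0.86, less than those of Cyp17a1. In both genes hSRY-ON 1 was highest and hSRY-ON 3 lowest.

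**Figure D1:**
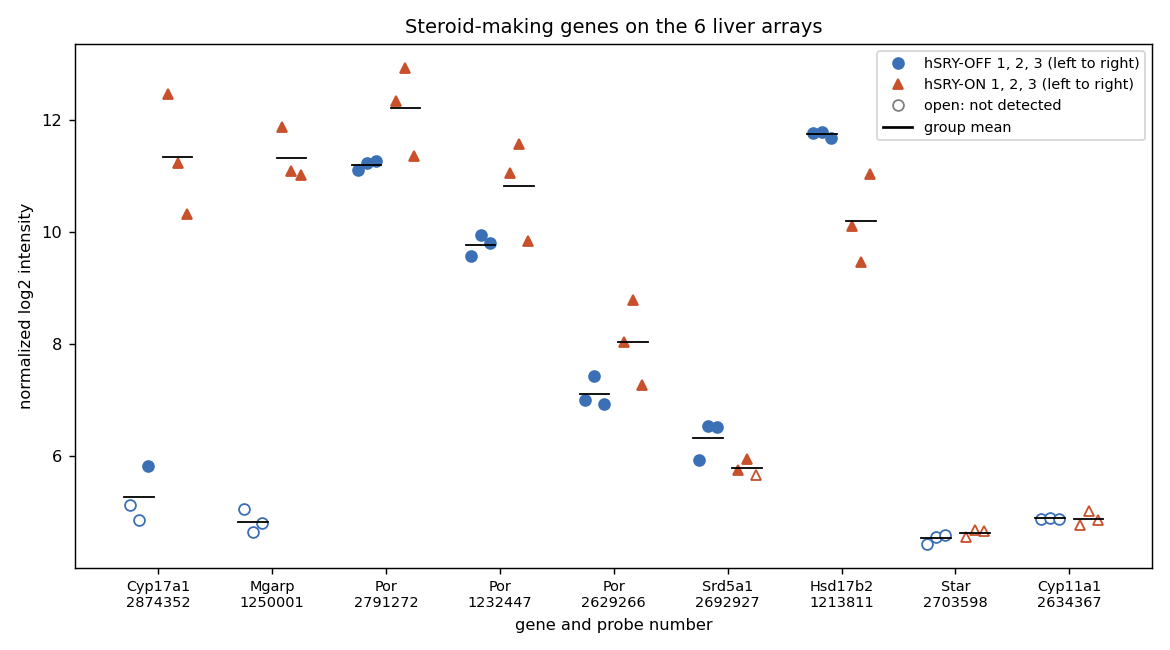
Normalized log2 intensity of the 9 probes of the 7 steroid-making genes on each of the 6 liver arrays, with circles for hSRY-OFF 1 to 3 and triangles for hSRY-ON 1 to 3 from left to right, open symbols for arrays that did not detect the probe, and black lines at group means. Cyp17a1 and Mgarp move from 4.64 to 5.83 in hSRY-OFF up to 10.33 to 12.46 in hSRY-ON, Hsd17b2 is lower in every hSRY-ON array, and Star and Cyp11a1 have open symbols throughout.

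The sequence before the Mgarp start site is shown because this gene was undetected in every control and bright in every hSRY-ON liver, and that before a Por start site because the POR protein serves CYP17A1. Both are the 250 bases upstream of a RefSeq start in GRCm38.p6, read 5′ to 3′ on the gene's strand, Mgarp on the minus strand at chr3:51396548-51396797 and Por on the plus strand at chr5:135688895-135689144. The Por window lies inside the span of the gene, which begins at 135670040, and so precedes an internal start site. Capitals mark matches to ACGTG (Mgarp) or GCGTG (Por) on either strand, the core letters of the hypoxia response element.
Mgarp: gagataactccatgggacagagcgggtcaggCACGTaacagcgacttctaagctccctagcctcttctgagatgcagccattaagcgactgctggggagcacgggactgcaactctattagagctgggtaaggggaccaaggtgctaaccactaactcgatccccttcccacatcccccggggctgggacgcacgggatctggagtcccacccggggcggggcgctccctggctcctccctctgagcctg
Por: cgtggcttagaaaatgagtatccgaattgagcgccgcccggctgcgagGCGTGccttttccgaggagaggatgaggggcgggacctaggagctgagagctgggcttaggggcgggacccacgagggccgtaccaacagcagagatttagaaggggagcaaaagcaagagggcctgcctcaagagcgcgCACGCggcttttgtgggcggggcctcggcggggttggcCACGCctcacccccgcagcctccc

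The window of Mgarp held 1 match to ACGTG, on the opposite strand between bases -219 and -215 from the start site. The window of Por held 3 matches to GCGTG, at -202 to -198 on its own strand and at -62 to -58 and -24 to -20 on the opposite strand. Short words of this kind are common: 16.6% of 32851 mouse promoter windows of the same length held ACGTG on either strand, and 28.2% held GCGTG. The other words searched on both strands were AACAAT, an SRY-type HMG box word (9.42% of windows), AAGGTCA, the NR5A word (4.08%), TGACG, the core of the cyclic AMP response element (17.8%), and TATAAA (12.4%). Windows were found for 4 of the 7 genes, Mgarp, Por, Srd5a1 and Cyp11a1, and none of these 4 held the SRY-type word, the NR5A word or TATAAA. Srd5a1 held 1 GCGTG at -32 to -28, and Cyp11a1 held 1 TGACG on the opposite strand at -50 to -46. No matches overlapped.

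Por, which passes electrons from NADPH to microsomal P450 enzymes including CYP17A1 (chromosome 5, 135670040 to 135735326), was high in liver of both groups and higher in 2 of 3 hSRY-ON pups. The first of its 3 probes, ILMN_2791272, read 11.11, 11.24 and 11.27 on hSRY-OFF 1, 2 and 3, and 12.34, 12.93 and 11.37 on hSRY-ON 1, 2 and 3. The lowest hSRY-ON array lay just above the highest control, and this gap closed into an overlap under median scaling, under trimmed-mean scaling and in the deposited intensities. In those intensities hSRY-OFF 1, 2 and 3 read 2584, 2869 and 2287 and hSRY-ON 1, 2 and 3 read 5619, 7532 and 2400, so that hSRY-ON 3 fell inside the control range. The group means were 11.21 ± 0.08 and 12.21 ± 0.79 (SD), the spread being far wider in hSRY-ON. The difference was 1.01 ± 0.35, or 2.01-fold, and it was 0.65 without hSRY-ON 2.

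The other probes of Por had the same order of hSRY-ON arrays. ILMN_1232447 read 9.57, 9.94 and 9.80 in hSRY-OFF and 11.06, 11.58 and 9.85 in hSRY-ON, a difference of 1.06 ± 0.40 with overlapping groups. ILMN_2629266 read between 6.93 and 7.43 in hSRY-OFF and 8.04, 8.78 and 7.27 in hSRY-ON, a difference of 0.91 ± 0.36, also overlapping. On all 3 probes the highest array was hSRY-ON 2 and hSRY-ON 3 sat near the controls, at 1.12, 1.05 and 1.11 times their mean. Without hSRY-ON 3 the differences were 1.43, 1.55 and 1.29, that is 2.70, 2.92 and 2.45-fold. The order of hSRY-ON arrays in Por was thus not that of Cyp17a1, in which hSRY-ON 1 was highest.

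Hsd17b2, which oxidises testosterone and estradiol to weaker steroids (chromosome 8, 117700982 to 117759030), was the member that stood lower. Probe ILMN_1213811 read 11.77, 11.79 and 11.68 on hSRY-OFF 1, 2 and 3, and 10.10, 9.47 and 11.05 on hSRY-ON 1, 2 and 3. The controls were tight (SD 0.06), every hSRY-ON array lay below them under each scaling, and hSRY-ON 3 was again nearest to them. The deposited intensities showed the same separation, at 4023, 4211 and 3060 in hSRY-OFF and 1359, 815.0 and 1955 in hSRY-ON. The hSRY-ON mean was 10.20 ± 0.80 (SD) against 11.75 in controls. The difference was -1.54 ± 0.36, a 2.91-fold lower level, and leaving out 1 array at a time moved it between -1.96, without hSRY-ON 3, and -1.17, without hSRY-ON 2. Across pups, the hSRY-ON array with the lowest Hsd17b2 level, hSRY-ON 2, was the one with the highest Por level.

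Srd5a1, which reduces testosterone to the more potent dihydrotestosterone (chromosome 13, 69573449 to 69611485), was faint in both groups. Probe ILMN_2692927 read 5.93, 6.54 and 6.51 on hSRY-OFF 1, 2 and 3, and 5.75, 5.95 and 5.66 on hSRY-ON 1, 2 and 3, with hSRY-ON 3 not detected. The groups overlapped narrowly, since hSRY-OFF 1 was below hSRY-ON 2, and they did not overlap under median or trimmed-mean scaling. Means were 6.33 ± 0.35 and 5.78 ± 0.15 (SD). The difference was -0.54 ± 0.19, or -0.51 with the undetected array at its floor.

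The first steps of the chain gave no signal above background in either group. Star (chromosome 8, 25808474 to 25815982), the cholesterol importer, was detected on 0 of 6 arrays and read 4.44 to 4.60 in hSRY-OFF and 4.56 to 4.68 in hSRY-ON. Cyp11a1 (chromosome 9, 57998024 to 58027031), the side-chain cleavage enzyme, was likewise detected on 0 of 6 arrays and read 4.89 to 4.90 in hSRY-OFF and 4.78 to 5.01 in hSRY-ON. Each had 1 probe, whose sequence was not used here, so that these readings bound what the probe saw and not all transcripts of the gene. Livers with a bright Cyp17a1 reading thus showed Star and Cyp11a1 probes not above background on the same arrays.

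Counted over the 7 detected member probes, 3 had all hSRY-ON arrays above all hSRY-OFF arrays (Cyp17a1, Mgarp and 1 probe of Por), 1 had all below (Hsd17b2) and 3 overlapped. Over all 10734 detected probes, 25.4% were separated upward and 24.6% downward. The members were chosen on this contrast, and nothing is read from their count. The hSRY-ON 3 array was nearest to the controls for Cyp17a1, Mgarp, Por and Hsd17b2, but over all detected probes its median distance from the hSRY-OFF mean was 0.37, against 0.37 and 0.39 for hSRY-ON 1 and 2.

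Profiles across the 6 arrays were compared by the root mean square difference (RMS, in log2) of levels centred on each probe's mean, among detected probes. Cyp17a1 and Mgarp were nearest to each other, at 0.52. Among the 10734 detected probes Mgarp had the largest rise and Cyp17a1 the next largest. The RMS depends on the size of the step, so nothing further is read from this nearness. Next to Cyp17a1 came Eif4ebp3, which encodes a repressor of cap-dependent translation (0.80), Gm853, now named Ldc1 (0.89), and Gpx3, the secreted glutathione peroxidase (0.97). Next to Mgarp came Gm853 (0.86), Eif4ebp3 (0.91) and Apoa4, an apolipoprotein (1.10).

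The shared feature of these neighbours is the size of the step between groups. Eif4ebp3 read 4.65, 5.01 and 4.90 in hSRY-OFF, detected on none of them, and 10.70, 11.82 and 9.09 in hSRY-ON, at least 27.9-fold higher under the background correction used. Gm853 read 4.45, 4.52 and 4.55 in hSRY-OFF, again undetected, and 9.78, 8.80 and 9.54 in hSRY-ON, at least 12.5-fold higher under the same correction. Gpx3 and Apoa4 differ from both members in being detected on every control array. Gpx3 rose from 8.70, 8.94 and 8.91 to 13.69, 13.27 and 12.59, with the order of hSRY-ON arrays seen in Cyp17a1. Apoa4 rose from 8.88, 9.10 and 8.92 to 13.28, 13.89 and 13.16. These genes were picked for likeness to Cyp17a1 or Mgarp, so their differences of 4.33 (Gpx3) and 4.48 (Apoa4) are a description as well.

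**Figure D2:**
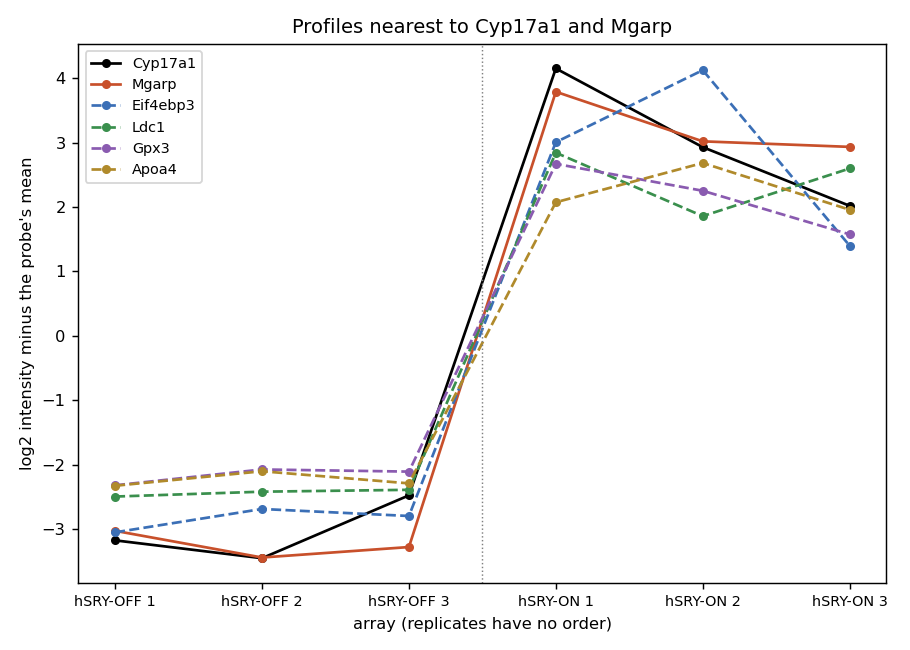
Levels of Cyp17a1, Mgarp and the genes nearest to them on the 6 arrays, as log2 intensity minus the probe's mean; lines join the values of a gene and imply no order of replicates. All curves step up between hSRY-OFF and hSRY-ON, and within hSRY-ON the peak falls on array 1 for Cyp17a1, Mgarp, Gpx3 and Ldc1 (listed as Gm853) and on array 2 for Eif4ebp3 and Apoa4.

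Around the members, the rest of the steroid pathway moved in both directions, with differences from -3.16 to 1.20. Of 47 detected probes of 32 other pathway genes, 8 were higher (4 genes) and 18 lower (13 genes) in hSRY-ON by limma with Benjamini-Hochberg adjusted p under 0.05, and 21 did not pass. The median difference was -0.30, beside 0.02 over all detected probes, of which 15.8% were called higher and 17.2% lower. The count of higher probes was 3 without hSRY-OFF 1 and 5 without hSRY-OFF 2 or hSRY-ON 1.

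The other P450 enzymes of steroid synthesis, Cyp21a1, Cyp11b1 and Cyp11b2 of the corticosteroid branch and the aromatase Cyp19a1, were detected on no array with any of their 6 probes. Cyp17a1 was thus the 1 steroidogenic P450 gene with a signal above background. Fdx1, which carries electrons to CYP11A1, was also detected on 0 arrays, a reading that bounds only what its probe saw. Of 3 probes of Fdxr, the reductase of FDX1, 2 were detected, with differences of -0.28 (adjusted p = 0.217, limma) and -0.41 (adjusted p = 0.0556, limma). The latter passed without hSRY-OFF 3 (adjusted p = 0.0351, limma). Among electron donors and partners of P450 enzymes, 6 of 8 detected probes were lower and 0 higher. Over all detected probes, 17.2% were called lower and 15.8% higher. Por, the donor followed here, ran the other way in 2 of 3 pups. Cyb5a (listed as Cyb5), cytochrome b5, which aids the lyase step of CYP17A1, read 9.69, 9.81 and 10.12 in hSRY-OFF and 8.90, 8.67 and 9.28 in hSRY-ON, and fell by 0.92 ± 0.19 (adjusted p = 0.0106, limma). The other 5 lower probes were those of Cyb5r3 (3 probes), Cyb5b and Pgrmc1, named after their values were seen, with differences from -0.94 to -0.45. Pgrmc1 (adjusted p = 0.0467, limma) passed in 0 of 15 alternatives (adjusted p from 0.0532 to 0.224). Cyb5b passed in 9 of 15, failing without hSRY-OFF 1, 2 or 3 or hSRY-ON 1 or 2 (highest adjusted p = 0.131, limma). The Cyb5r3 probe ILMN_2712873 passed in 12 of 15, failing without hSRY-OFF 1, hSRY-OFF 2 or hSRY-ON 1 (highest adjusted p = 0.0770, limma).

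Among genes that move cholesterol toward the enzymes, 4 probes were higher and 2 lower of 12 detected. The shares over all detected probes were 15.8% higher and 17.2% lower. Nceh1 (listed as Aadacl1), a cholesteryl ester hydrolase, rose from 10.24, 10.35 and 10.36 to 11.66, 11.47 and 11.44, by 1.20 ± 0.12 (adjusted p = 0.000615, limma). Tspo, a cholesterol-binding protein of the outer mitochondrial membrane, was higher on 3 probes by 0.58 to 0.60. Its probe ILMN_2877069 kept the call in every alternative (adjusted p = 0.00697, limma, n = 3 a group), whereas ILMN_2727920 lost it under median scaling and without hSRY-OFF 1 (adjusted p = 0.0755, limma), hSRY-OFF 2 (0.0628) or hSRY-ON 1 (0.0588) and ILMN_2727921 without hSRY-OFF 1 (0.0560). Among the lower probes was that of the sterol carrier Stard4 (-1.10, adjusted p = 0.00164, limma), named after its values were seen.

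The Hsd3b family of hydroxysteroid dehydrogenases, not all of which act on pregnenolone, had 5 lower probes and 0 higher of 6 detected. Lower and higher calls made up 17.2% and 15.8% of all detected probes. Hsd3b7, the family member of bile acid synthesis, was bright and lower on both probes, at -1.47 ± 0.17 (adjusted p = 0.000973, limma) and -1.64 ± 0.19 (adjusted p = 0.00108, limma). Hsd3b4 was at least 1.42-fold lower (adjusted p = 0.000864, limma) and Hsd3b5 at least 1.74-fold lower (adjusted p = 0.00127, limma), both undetected in hSRY-ON. The probes of Hsd3b2 disagreed: ILMN_1214838 was at least 5.38-fold lower (adjusted p = 4.33e-05, limma), ILMN_2898958 read 8.53 and 8.52 as group means (adjusted p = 0.989, limma), and 4 more were not tested. The bounds for this family belong to the background correction used here. Without it the difference of ILMN_1214838 was -1.41 on the log2 scale. Genes of this family are near-identical copies, so which of them a probe reads is uncertain. Hsd3b1, the adrenal and gonadal form, was detected on no array.

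Other enzymes that interconvert active and weak steroids changed in both directions. Hsd17b11 was higher on 3 probes, of which ILMN_2705361 kept its call in all 15 alternatives. It rose from 11.52, 11.66 and 11.20 to 12.78, 12.82 and 12.08, by 1.10 ± 0.23 (adjusted p = 0.0104, limma). Of its other probes, ILMN_2642985 (1.08) lost the call without hSRY-OFF 1 (adjusted p = 0.0523, limma) and ILMN_2685234 (0.91) kept it in 8 of 15 alternatives, losing it without hSRY-OFF 1 or 2 or hSRY-ON 1 or 2 (highest adjusted p = 0.0982, limma). Hsd17b10, a mitochondrial dehydrogenase, was higher by 0.65 ± 0.19 (adjusted p = 0.0361, limma). That call was lost under median scaling, with no detection filter, with the replicate number as a block, and without hSRY-OFF 1, hSRY-OFF 2, hSRY-ON 1 or hSRY-ON 2 (adjusted p from 0.0886 to 0.128 for the left-out arrays, limma). Hsd11b1, which regenerates active glucocorticoid in liver, fell on 3 probes by 0.84 to 0.87 (adjusted p from 0.00304 to 0.00896, limma), and a further probe was not detected. Papss2, which makes the sulfate donor for steroid sulfation, fell from between 7.84 and 8.30 to between 6.08 and 6.37, by 1.83 ± 0.16 (adjusted p = 0.000347, limma). Hsd17b3, the testicular enzyme of testosterone synthesis, and Akr1d1 were detected on no array. Their readings bound what the probes saw and not all transcripts of the genes.

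**Figure D3:**
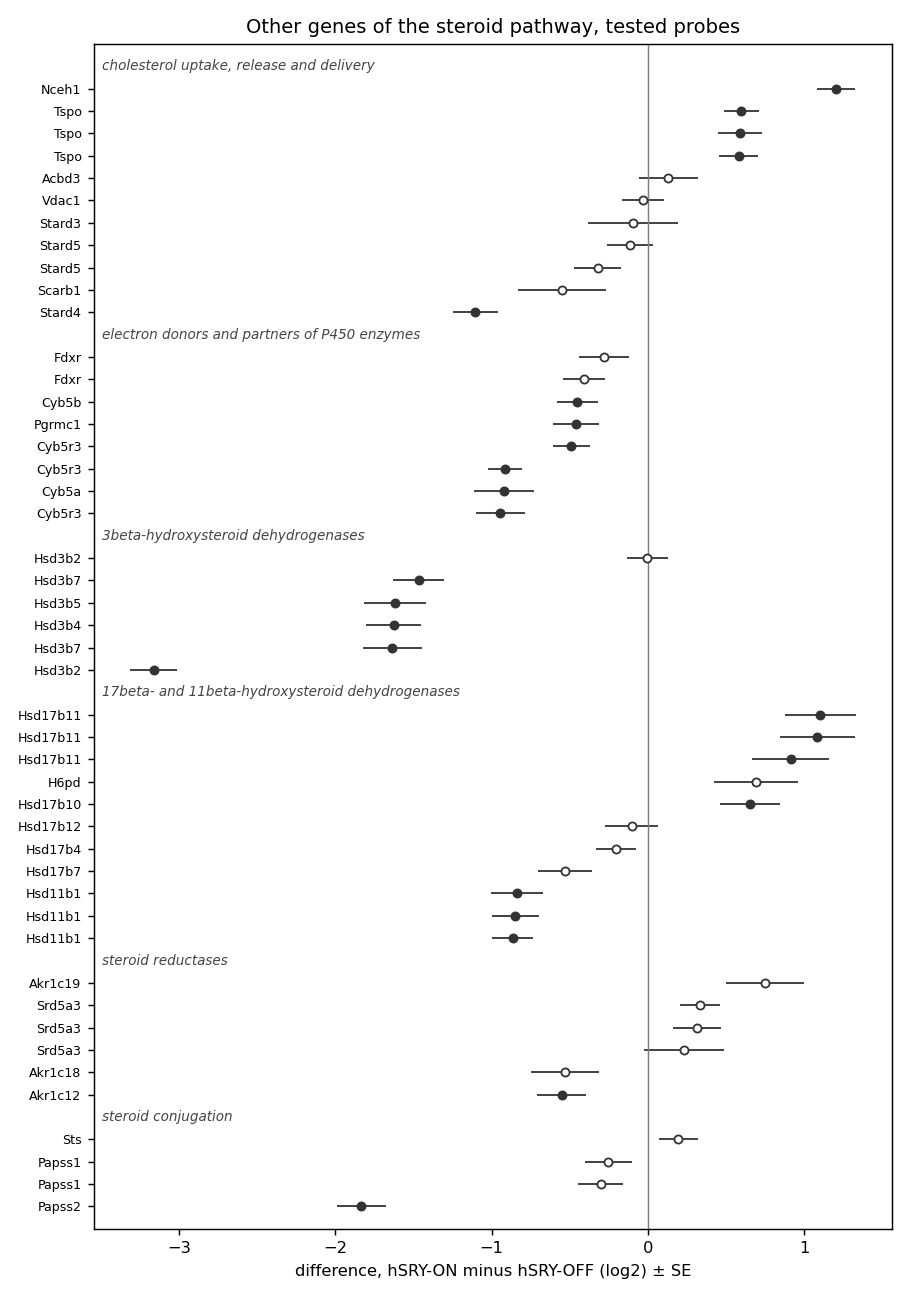
Difference (hSRY-ON minus hSRY-OFF, log2) with its SE for the detected probes of the other steroid pathway genes (1 of the 47, a lower one, is not drawn), n = 3 arrays a group. Filled points passed adjusted p under 0.05; values run from -3.16 for an Hsd3b2 probe to 1.20 for Nceh1.

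Known regulators of Cyp17a1 and its pathway were tested next. Of 25 detected probes of 21 regulator and receptor genes, 3 were higher (3 genes) and 10 lower (8 genes), beside 15.8% higher and 17.2% lower over all detected probes, with a median difference of -0.44. Without hSRY-ON 3, 5 were higher. Nr5a1, the nuclear receptor that drives steroid enzyme genes in adrenal and gonad, and Nr4a1 were detected on no array. Nr5a2, its liver relative, read 7.47, 7.98 and 7.38 in hSRY-OFF and 7.21, 7.96 and 6.23 in hSRY-ON on its detected probe (adjusted p = 0.400, limma), with overlapping groups.

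The GATA factors GATA4 and GATA6 bind steroid enzyme promoters. Under the background correction used, Gata4 was at least 1.37-fold lower (adjusted p = 0.0182, limma). That call was lost under trimmed-mean scaling and without hSRY-OFF 1 (adjusted p = 0.0650, limma) or hSRY-OFF 2 (0.0700). Without background correction the Gata4 difference was -0.28 on the log2 scale. Gata6 differed by 0.49 ± 0.22 (adjusted p = 0.120, limma; 0.0186 without hSRY-ON 3). The 3 higher genes were Cebpb, a hepatic stress and fasting factor, Esrra, a nuclear receptor of mitochondrial genes, and Ppargc1a, its coactivator. Cebpb rose from 11.17, 11.35 and 10.78 to 12.55, 12.72 and 12.19, by 1.39 ± 0.20 (adjusted p = 0.00264, limma). Esrra rose from 9.27, 9.13 and 9.04 to 10.43, 10.27 and 10.01, by 1.09 ± 0.15 (adjusted p = 0.00196, limma). Ppargc1a read 6.20, 6.59 and 7.28 in hSRY-OFF and 8.11, 9.61 and 7.47 in hSRY-ON, a difference of 1.70 ± 0.53 (adjusted p = 0.0448, limma). Its call held in 5 of 15 alternatives, and was lost without hSRY-OFF 1, 2 or 3 or hSRY-ON 1 or 2 (adjusted p from 0.0529 to 0.142, limma). As in Por, hSRY-ON 2 was highest and hSRY-ON 3 lowest.

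The 4 lower genes with the smallest p were the lipid synthesis factor Srebf1 (at least 5.40-fold lower, on 1 of its 2 probes), the receptors of growth hormone, Ghr (-1.31), and prolactin, Prlr (-2.19, on 1 of its 3 probes), and the xenobiotic receptor Nr1i3 (-1.39), with adjusted p from 0.000215 to 0.00347 (limma). The Srebf1 bound belongs to the background correction used, and its difference was -1.33 on the log2 scale without that correction. The estrogen receptor Esr1 and the glucocorticoid receptor Nr3c1 were detected on no array, and none of the 9 probes of steroid hormone receptors passed the filter. As for Star and Cyp11a1, this bounds what the probes saw, and does not show that the liver lacks these receptor transcripts.

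Since MGARP acts on mitochondria, genes of mitochondrial movement and shape were set beside it. Of 26 detected probes of 17 genes, 7 were higher (5 genes) and 0 lower by limma, beside 15.8% higher and 17.2% lower over all detected probes, with a median difference of 0.20. The count of higher probes was 1 without hSRY-OFF 1, hSRY-OFF 2 or hSRY-ON 1, 4 without hSRY-OFF 3, and 3 under median scaling. Mff, a receptor for the fission machinery, had the firmest rise, from 8.30, 8.28 and 8.58 to 9.84, 9.52 and 9.47, by 1.22 ± 0.15 (adjusted p = 0.00147, limma).

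Smaller rises came from Trak2, an adaptor that joins mitochondria to kinesin (0.95 ± 0.24, adjusted p = 0.0204, limma), and the fusion genes Mfn2 (0.60 ± 0.15, 0.0221) and Mfn1 (0.55 ± 0.14, 0.0247). The calls of these 3 probes were lost without hSRY-OFF 1, hSRY-OFF 2 or hSRY-ON 1 (adjusted p from 0.0532 to 0.0994, limma), and that of Mfn2 also without hSRY-OFF 3 (0.0619) or hSRY-ON 2 (0.0540). Under median scaling Mfn1 (adjusted p = 0.0727, limma) and Mfn2 (0.102) lost the call, and Mfn1 also lost it with the replicate number as a block (0.0594).

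**Figure D4:**
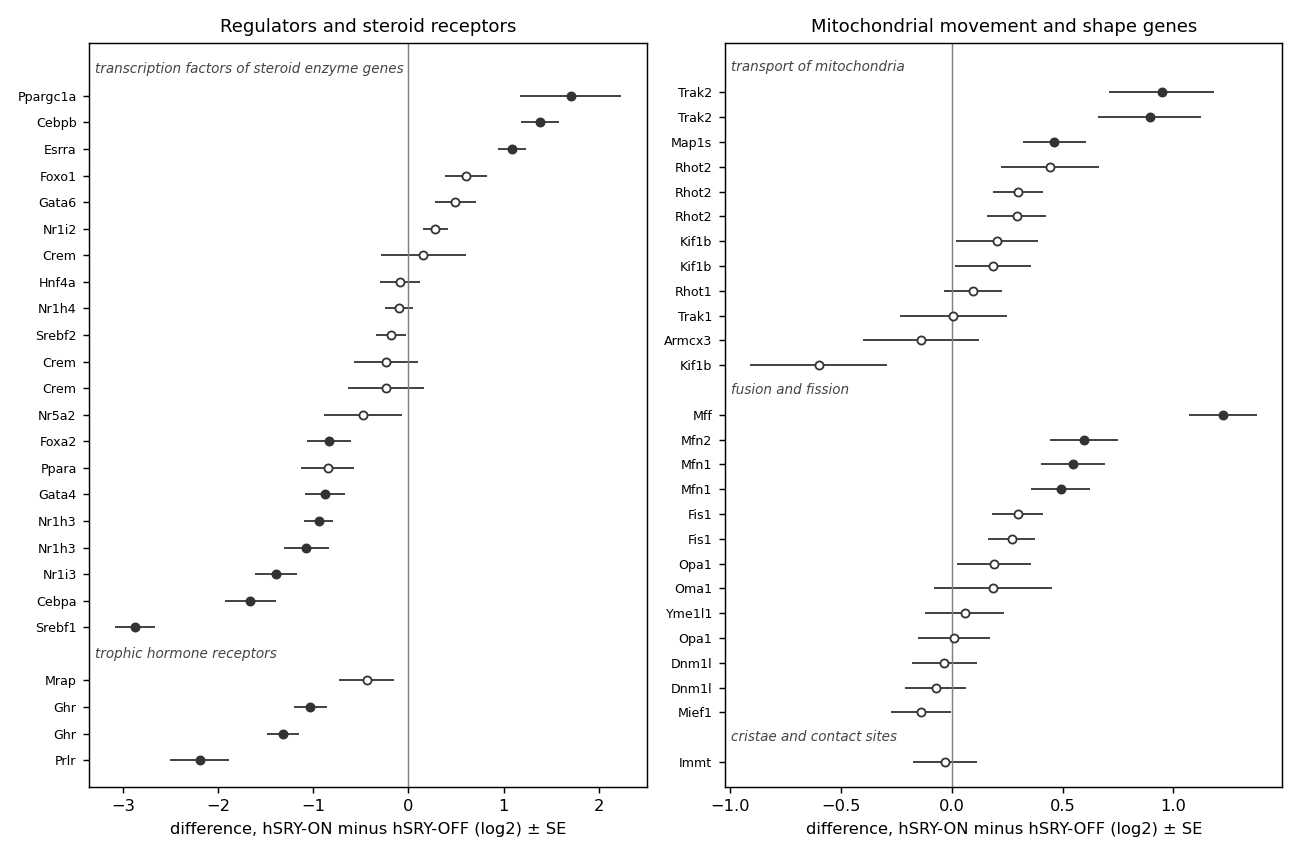
Difference (hSRY-ON minus hSRY-OFF, log2) with its SE for detected probes of regulators and steroid receptors and of mitochondrial movement and shape genes, n = 3 arrays a group. Filled points passed adjusted p under 0.05: 3 higher and 10 lower among 25 regulator probes, with Srebf1 lowest at -2.87, and 7 higher and 0 lower among 26 mitochondrial probes, with Mff highest at 1.22.

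Steroid synthesis is best known from adrenal gland, testis and ovary, so markers of adrenal gland and testis were read on the same arrays. Of 20 probes of 15 adrenal marker genes, 18 were detected on no array, among them all probes of Cyp21a1, Cyp11b1, Cyp11b2, Hsd3b1, Mc2r and Nr5a1. The exceptions were Akr1b7, at -1.34 (adjusted p = 0.124, limma), and Mrap, at -0.44 (adjusted p = 0.272, limma), each detected on all 6 arrays. The summed normalized intensity of the adrenal list was 3957 to 4573 in hSRY-OFF and 2024 to 3573 in hSRY-ON. All 18 probes of the 12 testis marker genes on the array, Insl3, Lhcgr and Hsd17b3 included, were detected on no array, with sums of 449 to 489 and 447 to 467.

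Markers of liver cells moved in both directions, with differences from -1.66 to 1.94 where detected. The summed hepatocyte list was 214576 to 217900 in hSRY-OFF and 193164 to 203885 in hSRY-ON. Of its 10 detected probes, 0 were higher and 2 lower, Alb by 1.11 (adjusted p = 0.00849, limma) and Ttr by 0.46 (adjusted p = 0.0173, limma). The Alb probe was dim, at deposited intensities of 441, 448 and 269 in hSRY-OFF and 269, 245 and 202 in hSRY-ON. Array medians were 146.9 to 164.7, so the Alb reading is not taken as the level of albumin transcript as a whole. Among 26 detected probes of Kupffer, endothelial, stellate, bile duct and erythroid markers, 6 were higher and 7 lower. Over all detected probes, 15.8% were called higher and 17.2% lower. Kupffer cell markers summed to 3685 to 4692 in hSRY-OFF and 2681 to 3464 in hSRY-ON. Of their 8 detected probes, 1 was higher and 3 were lower. Endothelial markers summed to 7763 to 9206 and 6438 to 8305, with 3 of 5 detected probes higher and 1 lower. Bile duct markers summed to 144 to 198 and 139 to 189. Stellate cell markers summed to 17643 to 20228 in hSRY-OFF and 12088 to 13871 in hSRY-ON. Of their 7 detected probes, 1 was higher and 3 were lower. Erythroid markers summed to 63145 to 80706 and 78929 to 91090, with 1 of 5 detected probes higher and 0 lower. Whether these shifts have a part in the levels of the steroid-making genes was not tested.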

How the data were processed

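Deposited values were 1 table of summarised bead intensities and a detection p-value for each probe and array, as exported by the authors from Illumina MouseRef-8 v2.0 arrays. The scanner software is not given in the sources used here. All 6 arrays, grouped by their labels, were used, and 0 value columns lacked a sample. The submitters' notes name limma. The study's methods state that TCC, a count method, was used to normalize and compare these arrays, and TCC was not used here.

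Intensities were background-corrected by normexp with control moments inferred from the detection p-values (nec, offset 16), quantile normalized and log2-transformed in R 4.3.3 with limma 3.58.1. Probes with detection p under 0.01 on at least 3 arrays were fitted (lmFit, eBayes, 2-sided, Benjamini-Hochberg, threshold 0.05), after the scripts were tested on simulated data. Differences are hSRY-ON minus hSRY-OFF. Detection on no array is a statement about the probes, which need not read every transcript of a gene. For a probe undetected throughout a group, the fold is a bound against the lowest detected level of each array, and it holds only under this background correction. Precision is limited by 3 arrays a group. SEs and p-values rest on the spread between these pups, with each probe's variance moderated by eBayes toward that of all detected probes. For Cyp17a1 the moderated SE was 0.51, against 0.68 without moderation, and for Hsd17b2 it was 0.36 against 0.46. Of 18138 symbols, 14307 were current in RefSeq (GRCm38.p6), 2927 matched an older name and 904 were unmatched.

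Members and lists were chosen with earlier results of these data known. Named were all member probes, the 4 smallest p in each direction and list (1 probe a symbol), a fixed set of steroid genes (some of them not reported here) and the 3 profiles nearest to Cyp17a1 and Mgarp. Alternatives were other background corrections, scalings, filters, an eBayes trend, 1 probe per gene, current names alone, a replicate block and leaving out each array.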

Additional observations from a re-analysis of the deposited data

How the results depend on the processing

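The differences of Cyp17a1 and Mgarp were positive in every alternative run, but their size depended on how background was handled, as both were near background in controls. They were 4.08 and 4.20 without background correction, 4.86 and 5.10 with normexp without control information (offset 50), 5.16 and 5.38 with an offset of 50, and 4.03 and 4.16 with trimmed-mean scaling of uncorrected values. Leaving out 1 array at a time gave 5.51 to 6.57 for Cyp17a1 and 6.22 to 6.65 for Mgarp. No member past the detection filter changed sign: Por ranged from 0.54 to 1.55 over its 3 probes, Srd5a1 from -0.74 to -0.20 and Hsd17b2 from -1.96 to -1.17. Counts of calls moved more. Over all probes, leaving out 1 array gave 898 to 1943 higher and 1145 to 2124 lower, the fewest without hSRY-OFF 1. It gave 3 to 9 higher and 13 to 17 lower among other steroid pathway genes, 2 to 5 and 8 to 11 among regulators, and 1 to 6 and 0 among mitochondrial genes. Counting 1 probe per gene gave 4 higher steroid pathway genes, as the 8 higher probes of the main fit belonged to 4 genes. Median scaling left 3 higher mitochondrial probes, and the cause was not tested. The replicate numbers did not pair the arrays: deviations from the group means correlated at 0.02, 0.10 and 0.05 between same-numbered arrays. With the replicate number as a block, 1568 probes were higher and 1645 lower, with 7 and 17 among steroid pathway genes, 2 and 11 among regulators and 5 and 0 among mitochondrial genes.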
